A study of Mus musculus with 13 samples.

Results

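The genes described are 6 red cell genes, out of 34709 genes counted: the alpha globin genes Hba-a1 and Hba-a2, the beta globin genes Hbb-bs and Hbb-bt, the anion exchanger gene Slc4a1 and the heme synthesis gene Alas2. They were given as a list of names, chosen with earlier results of these data known, and all 6 were found in the table of counts and passed the low-count filter. RNA came from whole lower incisors of males at postnatal day 5, with 3 VDRgem, 5 VDR-null and 5 control libraries. VDRgem and VDR-null are mutants of the vitamin D receptor gene Vdr. As background, VDRgem mice carry a receptor that answers synthetic gemini analogs and not the natural hormone, and VDR-null mice lack a working receptor. The labels give genotype, sex, age and tissue, and name no agent. The sources used here do not give the strain, the alleles of the controls or the animal behind each library. The p-values therefore measure the spread between these incisors, some of which could share an animal.

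Hemoglobin is a tetramer of alpha and beta globin chains, each holding a heme. In developing red cells, Alas2 is the erythroid form of the rate-limiting enzyme of heme synthesis, and Slc4a1 (band 3) is the chloride and bicarbonate exchanger that also anchors the red cell membrane to its skeleton. Young red cells keep globin mRNA after they have lost their nucleus, and blood carries such cells through the vessels of the dental pulp. In whole incisors, fewer red cells and less RNA per red cell cannot be told apart.

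Both globin pairs are near-copies of each other, which limits what a count for a single gene means. Hba-a1 (ENSMUSG00000069919) lies at chr11:32283511-32284465 and Hba-a2 (ENSMUSG00000069917) at chr11:32296489-32297298, both on the plus strand of mm10 with 3 exons. Hbb-bs (ENSMUSG00000052305) lies at chr7:103826534-103828096 and Hbb-bt (ENSMUSG00000073940) at chr7:103812524-103813996, both on the minus strand with 3 exons. The coding sequences of the alpha pair are 426 bases long and differ at 1 base, and those of the beta pair are 441 bases long and also differ at 1 base. The stretches below are shown because they hold that base, in capitals, at coding base 381 (alpha pair) and 417 (beta pair), counted from 1 at the start codon. The stretch runs over coding bases 322 to 381 in the alpha pair and 358 to 417 in the beta pair.
Hba-a1: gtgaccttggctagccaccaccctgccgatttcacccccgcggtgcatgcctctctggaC
Hba-a2: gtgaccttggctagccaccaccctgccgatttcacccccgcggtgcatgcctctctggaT
Hbb-bs: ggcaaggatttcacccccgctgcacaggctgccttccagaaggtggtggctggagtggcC
Hbb-bt: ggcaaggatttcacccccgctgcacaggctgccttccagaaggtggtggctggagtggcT

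Most short reads from these coding sequences have no base that tells the copies apart. Of all windows of 50 bases along the annotated transcript, 32.5% of those of Hba-a1, 13.1% of those of Hba-a2, 34.2% of those of Hbb-bs and 41.7% of those of Hbb-bt were found in no other gene's transcript. With windows of 100 bases the shares were 43.5%, 25.5%, 37.4% and 45.2%, in the same order. Windows were compared with annotated transcripts only, not with the genome. Hba-a1 begins at chr11:32283511, inside its RefSeq promoter stretch (chr11:32283422-32283721), which matches that of Hba-a2 over 297 aligned bases. Bases there can count as found in no other transcript, although the same bases lie just before Hba-a2. The Hba-a1 shares can thus be too high as a measure of what tells the copies apart. Slc4a1 (ENSMUSG00000006574, chr11:102348824-102366203, minus strand, 20 exons) and Alas2 (ENSMUSG00000025270, chrX:150547375-150570638, plus strand, 11 exons) shared no window of either length with another gene. The sources used here give neither the read length nor the treatment of reads that map to several places. The count of a single globin gene, and any ratio within a pair, is uncertain for that reason.

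The promoter windows are shown to describe the sequence at the start of these genes, and any part of it in the levels below was not tested. RefSeq windows on GRCm38.p6, from 250 bases before to 50 bases after the start site, were found for 5 of the 6 genes, all but Slc4a1. They were searched on both strands for GATAA (the core bound by GATA factors), CACCC (the core bound by Klf1 and related factors), CCAAT and TATAA, and matches stand in capitals, overlapping or adjoining matches as 1 run. The windows of Hba-a1 and Hba-a2 are identical over 297 aligned bases, offset by 3, so the Hba-a1 window stands for both.
Hba-a1, chr11:32283422-32283721, plus strand: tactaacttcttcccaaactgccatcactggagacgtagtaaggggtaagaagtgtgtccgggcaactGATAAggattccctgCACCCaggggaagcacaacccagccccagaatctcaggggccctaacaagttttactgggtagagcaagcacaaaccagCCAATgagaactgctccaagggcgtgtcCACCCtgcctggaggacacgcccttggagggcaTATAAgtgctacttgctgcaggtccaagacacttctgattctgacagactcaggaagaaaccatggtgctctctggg
Hbb-bs, chr7:103827879-103828178, minus strand: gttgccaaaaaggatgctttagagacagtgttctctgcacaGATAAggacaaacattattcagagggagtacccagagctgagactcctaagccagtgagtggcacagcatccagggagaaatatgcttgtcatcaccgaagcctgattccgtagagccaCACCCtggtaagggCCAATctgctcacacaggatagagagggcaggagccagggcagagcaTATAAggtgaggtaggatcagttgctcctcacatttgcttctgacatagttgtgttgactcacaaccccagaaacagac
Hbb-bt, chr7:103813874-103814173, minus strand: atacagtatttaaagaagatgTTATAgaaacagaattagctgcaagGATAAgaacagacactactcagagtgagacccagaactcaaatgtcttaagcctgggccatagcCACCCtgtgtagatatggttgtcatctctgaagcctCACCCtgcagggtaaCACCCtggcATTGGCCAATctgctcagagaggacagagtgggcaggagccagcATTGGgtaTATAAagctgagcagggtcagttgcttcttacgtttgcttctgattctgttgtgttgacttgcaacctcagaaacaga
Alas2, chrX:150547167-150547466, plus strand: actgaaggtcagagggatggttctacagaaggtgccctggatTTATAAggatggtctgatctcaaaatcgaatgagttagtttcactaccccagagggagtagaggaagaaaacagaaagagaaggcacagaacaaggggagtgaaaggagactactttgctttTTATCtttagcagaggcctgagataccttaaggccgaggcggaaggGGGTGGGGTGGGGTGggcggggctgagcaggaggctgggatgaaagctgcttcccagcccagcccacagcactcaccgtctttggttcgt

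All 4 globin windows held all 4 motifs, and the Alas2 window held the other 3 but not CCAAT. Among the 32851 promoter windows in the table, GATAA was present in 25.4%, CACCC in 57.5%, CCAAT in 37.4% and TATAA in 24.9%, and all 4 motifs together in 496, or 1.51%. Counted from the start site, TATAA on the printed strand began at -27 in Hba-a1, -30 in Hba-a2, -29 in Hbb-bs and -28 in Hbb-bt. In Alas2 it began at -207 on the printed strand, overlapping a match on the other strand at -208. These are matches of letters, and binding of any factor was not measured here.

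Total counts ran from 20405188 to 87783466 per library, and the 6 genes had between 38 counts (Slc4a1 in VDR-null 4) and 19789 counts (Hbb-bs in VDRgem 3). Levels are CPM, counts scaled to a common library size by TMM. The summed level of 6 enamel and dentin markers was between 34006 and 102203 CPM in each library, so the defining markers of the labelled tissue were present. Vdr lay between 107 and 205 CPM in VDRgem, 204 and 281 CPM in VDR-null and 142 and 180 CPM in control libraries; counts per gene do not show exons, so this does not check the labels. VDRgem 1 and 2 stood apart by skin keratinocyte markers: 12 such genes summed to 14803 and 5639 CPM there, against 1444 CPM in VDRgem 3, 478 to 1557 CPM in VDR-null and 934 to 1559 CPM in control libraries. VDR-null 3 stood apart by 9 skeletal muscle markers, at 681 CPM, against 4.53 to 65.1 CPM in the other VDR-null libraries. Those muscle markers summed to 252 CPM in VDRgem 1 and to 29.8 and 49.1 CPM in the other VDRgem libraries, with 6.78 to 29.1 CPM in control libraries.

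The 6 genes held a small part of each library. Their summed counts made up 0.0283 ± 0.00870% of a VDRgem library (SD, n = 3), 0.0182 ± 0.00943% of a VDR-null library (n = 5) and 0.0260 ± 0.00376% of a control library (n = 5). The lowest of the 13 values was 0.00771% in VDR-null 4 and the highest 0.0360% in VDRgem 3. If reads shared by the copies were left uncounted, these shares and the globin levels are too low. CPM per kilobase of transcript takes length into account but not such reads, so the order of the genes below is that of the deposited counts. On that scale Hbb-bs was the highest in each group, at 298 ± 103 in VDRgem, 178 ± 100 in VDR-null and 239 ± 32.4 in control libraries. In control libraries Hba-a1 (48.4 ± 12.3), Hbb-bt (42.6 ± 6.07) and Hba-a2 (37.0 ± 9.28) followed, within an SD of their neighbours in that order. In VDRgem libraries the order was the same, with 61.3 ± 15.8 for Hba-a1, 48.5 ± 15.3 for Hbb-bt and 43.8 ± 11.5 for Hba-a2, and in VDR-null libraries Hbb-bt (37.1 ± 25.3) came before Hba-a1 (27.5 ± 18.0) and Hba-a2 (20.2 ± 14.5), again within their SDs. In control libraries Alas2, at 7.39 ± 0.821 CPM per kilobase, and Slc4a1, at 0.584 ± 0.136, lay below all globin genes, and each stood clear of its neighbours in the order by more than their SDs.

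Other genes of developing red cells lay at very different levels. Of 15 erythroid regulators 5 averaged under 1 CPM, among them Gata1 (0.0402 CPM over all libraries) and Klf1 (0.263 CPM), transcription factors that drive red cell development. Others of that list were far higher, such as Tal1 at 3.20 CPM, Lmo2 at 11.5 CPM, the receptor gene Kit at 140 CPM and Ldb1 at 170 CPM, and many tissues express Lmo2, Kit and Ldb1. Of 16 membrane genes 7 averaged under 1 CPM, among them Epb42, a band 3 partner in the red cell membrane, at 0.174 CPM, while Ank1 averaged 3.18 CPM, Sptb 10.7 CPM and Epb41 80.2 CPM. The embryonic globins Hba-x, Hbb-bh1 and Hbb-y had 2, 3 and 5 counts in all 13 libraries together.

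**Figure D1:**
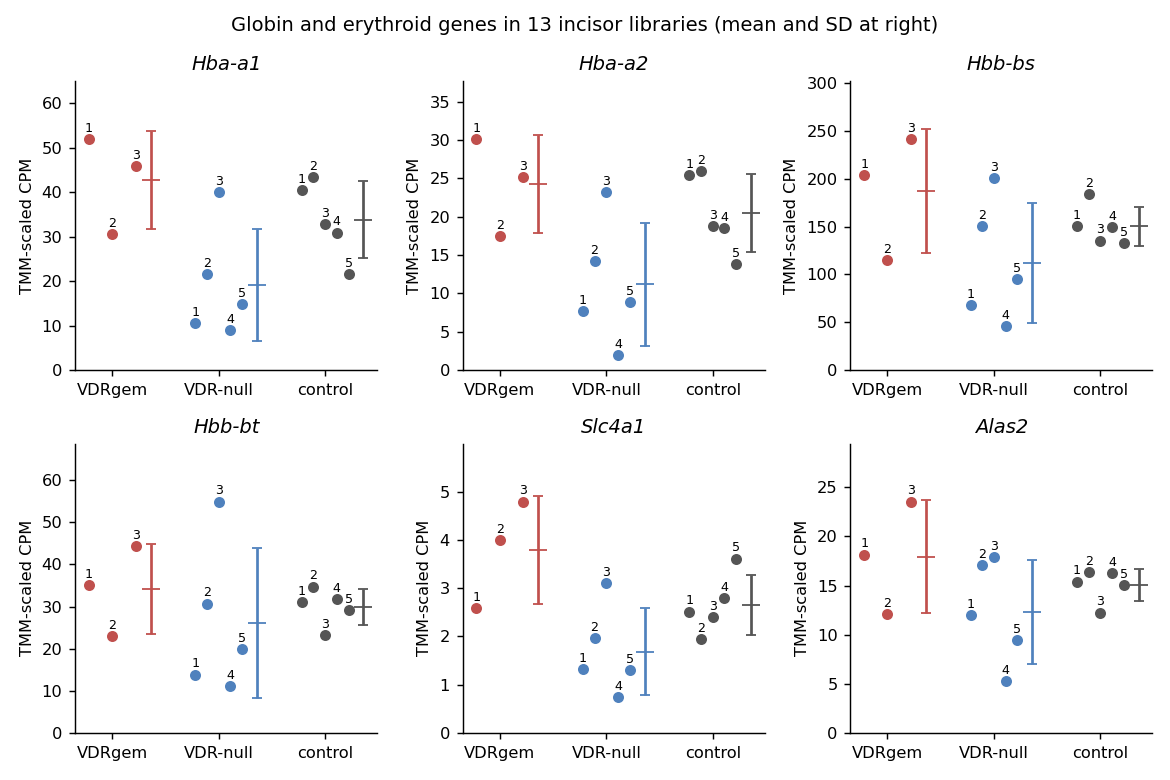
TMM-scaled CPM of each gene (y axis, from 0, a scale of its own in each panel) in the VDRgem, VDR-null and control libraries, with library numbers beside the points and the mean and SD of the group to the right. VDR-null 4 is the lowest point in all 6 panels, VDR-null 3 lies at or above the control median in all 6, and in no panel do any of the groups separate.

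Of the alpha globins, Hba-a1 had 52.0, 30.6 and 45.9 CPM in VDRgem libraries 1 to 3. It had 10.6, 21.6, 40.0, 8.99 and 14.8 CPM in VDR-null libraries 1 to 5, and 40.5, 43.3, 32.8, 30.9 and 21.5 CPM in control libraries 1 to 5. VDR-null 1, 4 and 5 lay below every control, VDR-null 2 lay just above the lowest control, and VDR-null 3 lay among the highest controls. Hba-a2 had 30.1, 17.5 and 25.2 CPM in VDRgem, 7.69, 14.2, 23.2, 1.96 and 8.86 CPM in VDR-null and 25.4, 25.9, 18.8, 18.5 and 13.8 CPM in control libraries. Its libraries fell in nearly the same order as those of Hba-a1, with a wide gap below VDR-null 1 to VDR-null 4.

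Of the beta globins, Hbb-bs had 204, 115 and 242 CPM in VDRgem libraries, and 68.4, 150, 201, 46.0 and 94.9 CPM in VDR-null libraries. Control libraries held 150, 184, 135, 150 and 133 CPM of Hbb-bs. VDRgem 1 and 3 and VDR-null 3 were above every control, while VDRgem 2 and VDR-null 1, 4 and 5 were below every control. Hbb-bt had 35.1, 23.0 and 44.3 CPM in VDRgem, 13.8, 30.7, 54.9, 11.1 and 19.8 CPM in VDR-null and 31.0, 34.8, 23.3, 31.7 and 29.1 CPM in control libraries. Its highest value of all 13 libraries was in VDR-null 3, and its lowest in VDR-null 4.

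Slc4a1, the membrane exchanger, had 2.59, 4.01 and 4.80 CPM in VDRgem, 1.32, 1.97, 3.11, 0.738 and 1.30 CPM in VDR-null and 2.52, 1.94, 2.40, 2.80 and 3.62 CPM in control libraries. VDRgem 2, low among the VDRgem libraries for all 4 globins, was high for Slc4a1. Alas2, the heme synthesis enzyme, had 18.1, 12.1 and 23.5 CPM in VDRgem, 12.0, 17.1, 17.9, 5.30 and 9.47 CPM in VDR-null and 15.4, 16.3, 12.2, 16.3 and 15.01 CPM in control libraries. VDR-null 2 and 3 were above every control for Alas2, and VDR-null 1, 4 and 5 below every control.

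The spread within VDR-null was wide for all 6 genes. The highest VDR-null library exceeded the lowest by 4.45-fold for Hba-a1, 11.8-fold for Hba-a2, 4.36-fold for Hbb-bs, 4.94-fold for Hbb-bt, 4.22-fold for Slc4a1 and 3.38-fold for Alas2. The same quotient was 1.70 to 2.10 across the 6 genes in VDRgem and 1.34 to 2.01 in control libraries. VDR-null 4 was the lowest of all 13 libraries for each gene, and VDR-null 1, 4 and 5 filled ranks 1 to 3 from below for each. VDR-null 3 held ranks 9 to 13 and VDRgem 3 ranks 10 to 13. The muscle markers were highest in VDR-null 3, and their part in its globin level was not tested.

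**Figure D2:**
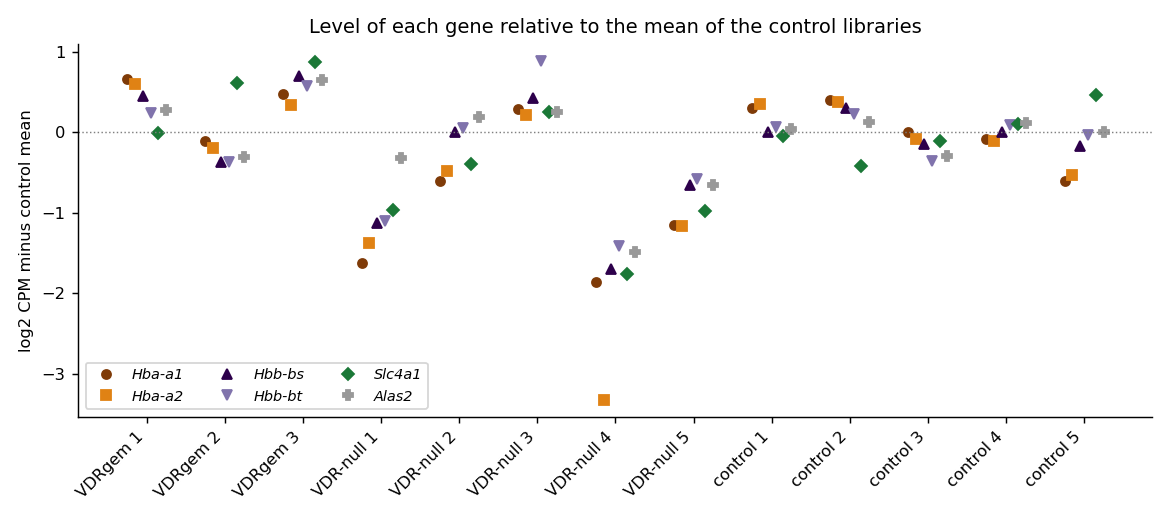
Log2 CPM of each gene minus its mean over the control libraries (y axis) in each library (x axis), 1 symbol per gene. The libraries VDR-null 1, 4 and 5 lie below 0 for all 6 genes, and the 6 symbols of a library span from 0.23 (control 4) to 1.91 (VDR-null 4) on the log2 scale, with Slc4a1 above 0 and Hbb-bs below 0 in VDRgem 2.

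In VDRgem against control incisors, which asks what the altered receptor does to the tooth, none of the 6 genes passed the test. The fitted log2 fold changes ran from 0.19 (Hbb-bt) to 0.51 (Slc4a1), with a median of 0.29 beside 0.00 for all tested genes. In edgeR's quasi-likelihood test, Benjamini-Hochberg adjusted p-values over the 17837 genes tested ran from 0.416 to 0.821, and no gene of the 6 had an unadjusted p under 0.05. Of all tested genes, 8.62% were called at an adjusted p under 0.05, and 4266 had an unadjusted p under 0.05. DESeq2 and limma-voom also called none of the 6. For Hba-a1 the log2 fold change was 0.35 (SE 0.39) with a 95% interval from -0.49 to 1.18, and for Hbb-bs it was 0.32 (SE 0.37) with an interval from -0.47 to 1.10. The series' own selection keeps an unadjusted p under 0.05 with an absolute log2 fold change over 0.3. Here and below these thresholds were applied to the edgeR values of this fit, and the submitters' own test was not rerun. They took none of the 6, and took 10.1% of all tested genes as higher in VDRgem. Without VDRgem 3 the fitted direction of Hbb-bt turned, to -0.04 (edgeR adjusted p = 0.971).

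In VDR-null against control incisors, which asks what loss of the receptor does, none of the 6 genes passed the test either. All fitted values were negative, from -0.21 (Hbb-bt) to -0.88 (Hba-a2), with a median of -0.56 beside 0.01 for all tested genes. Hba-a1 averaged 19.2 ± 12.6 CPM in VDR-null and 33.8 ± 8.59 CPM in control libraries (SD, n = 5 each), a log2 fold change of -0.83 (SE 0.35, 95% interval -1.57 to -0.08, edgeR adjusted p = 0.179). Slc4a1 averaged 1.69 ± 0.908 CPM in VDR-null and 2.66 ± 0.620 CPM in control libraries, a log2 fold change of -0.69 (SE 0.32, edgeR adjusted p = 0.217). Of all tested genes, 1.33% were called, and 4068 genes had an unadjusted p under 0.05, Hba-a1 and Slc4a1 among them. DESeq2 and limma-voom called none of the 6. Applied to the edgeR values, the series' own selection took these 2 genes as lower, beside 7.79% of all tested genes taken as lower in VDR-null. Hba-a1 passed when VDR-null 3 was left out, the library with the muscle markers and also the highest VDR-null library for Hba-a1 (40.0 CPM). Without it the log2 fold change was -1.27 (edgeR adjusted p = 0.0390), in a fit that called 2.76% of all tested genes.

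In VDRgem against VDR-null incisors, 2 of the 6 genes were higher in VDRgem and none was lower. Of all tested genes 18.8% were called in this comparison, 10.6% as higher in VDRgem, and 6202 had an unadjusted p under 0.05. Slc4a1 averaged 3.80 ± 1.12 CPM in VDRgem (SD, n = 3) and 1.69 ± 0.908 CPM in VDR-null libraries (n = 5), with a log2 fold change of 1.20 (SE 0.35, 95% interval 0.44 to 1.96, edgeR adjusted p = 0.0333). VDRgem 2 and 3 lay above every VDR-null library for Slc4a1, and VDRgem 1 lay below VDR-null 3. Hba-a1 averaged 42.8 ± 11.02 CPM in VDRgem and 19.2 ± 12.6 CPM in VDR-null libraries, with a log2 fold change of 1.17 (SE 0.39, 95% interval 0.34 to 2.00, edgeR adjusted p = 0.0497). VDRgem 1 and 3 lay above every VDR-null library for Hba-a1, and VDRgem 2 lay below VDR-null 3.

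The other 4 genes had positive values that did not pass: 1.13 (SE 0.49, edgeR adjusted p = 0.114) for Hba-a2, 0.74 (SE 0.37, 0.164) for Hbb-bs, 0.55 (SE 0.31, 0.220) for Alas2 and 0.40 (SE 0.40, 0.502) for Hbb-bt. The median of the 6 was 0.94 beside -0.02 for all tested genes. The series' own selection took 3 of the 6 (Hba-a1, Hba-a2 and Slc4a1), beside 15.5% of all tested genes taken as higher in VDRgem. This comparison and the VDRgem and VDR-null comparisons with control share libraries in pairs, so the 3 sets of fold changes are not independent.

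Both calls between the mutants depended on single libraries. The Hba-a1 call was lost when any 1 library other than VDR-null 3 was left out, with edgeR adjusted p-values from 0.0522 to 0.193. The controls enter this comparison only through the common dispersion, filter and scaling, and leaving out any of them also ended it. The Slc4a1 call was lost without VDRgem 1 (edgeR adjusted p = 0.0583), VDRgem 2 (0.0866), VDRgem 3 (0.0774), VDR-null 1 (0.0750), VDR-null 4 (0.0513) or VDR-null 5 (0.0665). Without VDR-null 3, 4 genes were called: Hba-a1, Slc4a1, Hba-a2 (log2 fold change 1.57, edgeR adjusted p = 0.0242) and Hbb-bs (1.06, 0.0333), in a fit that called 23.2% of all tested genes, 13.1% as higher in VDRgem. VDR-null 3 was the highest VDR-null library for each of these 4 genes. With limma-voom on all libraries Hba-a1 and Slc4a1 were called, and so was Hba-a2 (log2 fold change 1.60, limma-voom adjusted p = 0.0376). Without VDRgem 1 and 2 together, the libraries with the keratinocyte markers, the values for Slc4a1 and Hba-a1 were 1.53 and 1.27 and neither passed (edgeR adjusted p = 0.439 and 0.521), in a fit where the lone VDRgem library takes its spread from the remaining groups. Fitted with only the 8 libraries of the 2 mutants, neither passed (0.0963 for Slc4a1 and 0.117 for Hba-a1). With the keratinocyte level as a covariate the values were 1.90 and 1.19 and neither passed (0.667 and 0.7096), and with robust dispersion Hba-a1 did not pass (0.0724).

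**Figure D3:**
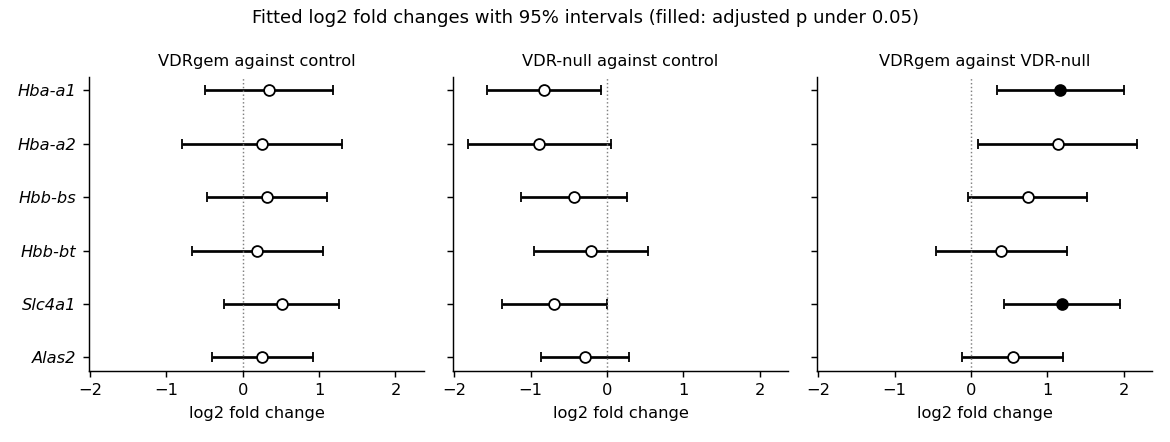
Fitted log2 fold change (x axis, with 95% interval) of each gene (rows) in VDRgem against control, VDR-null against control and VDRgem against VDR-null. The only filled points, which passed at an adjusted p under 0.05, are Hba-a1 (1.17) and Slc4a1 (1.20) in the comparison of the mutants, and each of the 6 genes has a positive value in VDRgem and a negative value in VDR-null against control.

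Ratios within a library do not depend on how many reads it has. Summed counts of the alpha pair over those of the beta pair were 0.313 ± 0.0562 in VDRgem (SD, n = 3), 0.213 ± 0.0222 in VDR-null (n = 5) and 0.299 ± 0.0560 in control libraries (n = 5). VDR-null ran from 0.192 to 0.247, below all VDRgem libraries, which ran from 0.248 to 0.348, while control 5 (0.218) lay inside the VDR-null range. The 4 other control libraries ran up to 0.364. Alas2 counts over those of the beta pair were 0.0819 ± 0.00581 in VDRgem, 0.0971 ± 0.0288 in VDR-null and 0.0838 ± 0.00774 in control libraries, with 0.145 in VDR-null 1. These ratios are given as values, with no test.

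Within the pairs the copies kept a nearly fixed ratio in most libraries. Hba-a2 counts over Hba-a1 counts were 0.549 to 0.580 in VDRgem and 0.572 to 0.641 in control libraries, and 0.726, 0.657, 0.581, 0.218 and 0.598 in VDR-null libraries 1 to 5. VDR-null 4, with 101 counts of Hba-a2 and 463 of Hba-a1, thus stood apart, with an exact 95% interval from 0.174 to 0.271 that covers counting error only. Hbb-bt over Hbb-bs was 0.172 to 0.199 in VDRgem, 0.203 to 0.274 in VDR-null and 0.172 to 0.219 in control libraries. VDR-null 4 was not set apart in that ratio, and VDR-null 3 was the highest.

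**Figure D4:**
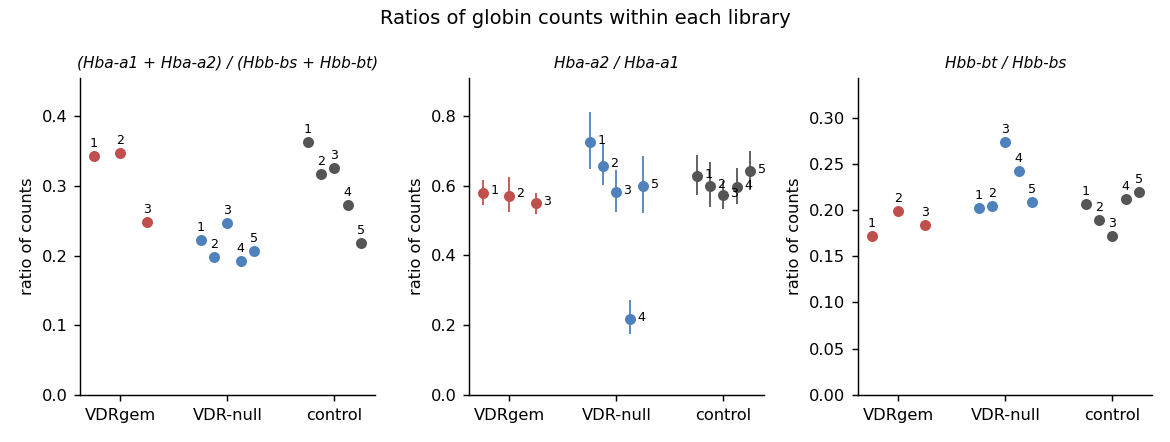
Ratios of raw counts in each library (y axes, from 0) for the alpha pair over the beta pair, Hba-a2 over Hba-a1 and Hbb-bt over Hbb-bs, with library numbers; bars in the middle panel are exact 95% intervals for counting error. In the middle panel VDR-null 4, at 0.218, lies far below the other 12 libraries, which run from 0.549 to 0.726.

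Around the 6 genes, 84 genes in 7 lists cover other globins, heme synthesis, the red cell membrane, erythroid regulators, red cell enzymes and iron supply, and 74 of them were tested. The median log2 fold change of the 74 was 0.08 in VDRgem against control, -0.08 in VDR-null against control and 0.12 in VDRgem against VDR-null, beside 0.00, 0.01 and -0.02 for all tested genes. In VDRgem against control 2 rose and 1 fell, in VDR-null against control none passed, and in VDRgem against VDR-null 12 were higher and 2 lower in VDRgem. Those shares lie beside 8.62%, 1.33% and 18.8% of all tested genes called. Of the 84 genes, 25 averaged under 1 CPM. Without VDRgem 1, which leaves 2 VDRgem libraries, none of the 74 passed in VDRgem against control, 5 were lower in VDR-null than in control libraries, and 2 were higher in VDRgem than in VDR-null libraries, in fits that called 0.364%, 3.75% and 2.39% of all tested genes. Without VDRgem 1 and 2 the counts called were 0, 3 and 0. With the keratinocyte level as a covariate none of the 74 passed in any comparison. The part of the keratinocyte markers in these counts was not tested. On library totals alone, without TMM, 1 of the 74 rose and 5 fell in VDRgem against control, and 3 fell in VDR-null against control. Between the mutants, 8 were higher and 6 lower in VDRgem. The shares of all tested genes called on that scaling are not given here, so these counts are no result about the lists. On that scaling the median of the 74 turned to -0.09 in VDRgem against control and to -0.05 in VDRgem against VDR-null, where that scaling moves all tested genes by -0.17 and -0.16.

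In the heme pathway few genes passed. Of its 15 tested genes, 1 rose in VDRgem against control, none passed in VDR-null against control, and 1 was higher in VDRgem than in VDR-null. Of all tested genes 8.62%, 1.33% and 18.8% were called in these comparisons. Clpx, a mitochondrial unfoldase known to activate the Alas enzymes, averaged 46.8 ± 8.00 CPM in VDRgem and 35.2 ± 3.59 CPM in control libraries (log2 fold change 0.41, SE 0.11, edgeR adjusted p = 0.0362), a call lost without control 1, 2, 4 or 5, VDRgem 1 or VDRgem 2 (edgeR adjusted p = 0.0581 to 0.261). Its log2 fold change was 0.25 without VDRgem 1 and 0.23 on library totals alone (edgeR adjusted p = 0.190), and the call was also lost with limma-voom (adjusted p = 0.0559) and with only the groups compared (edgeR adjusted p = 0.0562). Slc25a39, a mitochondrial carrier, averaged 117 ± 11.6 CPM in VDRgem and 92.0 ± 13.5 CPM in VDR-null libraries (0.35, SE 0.11, edgeR adjusted p = 0.0418), a call lost without control 1, 2 or 4, VDRgem 1 or 2, or VDR-null 1 or 5 (edgeR adjusted p = 0.0547 to 0.215). Fech, which inserts iron into heme as the last step, averaged 57.3 ± 1.24 CPM in VDRgem, 56.4 ± 3.78 CPM in VDR-null and 59.0 ± 5.91 CPM in control libraries.

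Among 15 tested membrane genes only Aqp1 passed, in both comparisons of VDRgem, beside 8.62% (against control) and 18.8% (against VDR-null) of all tested genes. Aqp1, a water channel of red cells that endothelium also makes, averaged 265 ± 27.9 CPM in VDRgem, 189 ± 32.0 CPM in VDR-null and 182 ± 23.7 CPM in control libraries. Its log2 fold change was 0.54 (SE 0.14, edgeR adjusted p = 0.0290) against control and 0.49 (SE 0.14, edgeR adjusted p = 0.0277) against VDR-null. The call against control was lost without VDRgem 1 or 2 or control 1, 2 or 5 (edgeR adjusted p = 0.0512 to 0.173), and that against VDR-null without VDRgem 1 or 2 or VDR-null 1 or 4 (edgeR adjusted p = 0.0528 to 0.159). Summed endothelial markers ran from 800 to 925 CPM in VDRgem, 606 to 808 CPM in VDR-null and 677 to 774 CPM in control libraries, and their part in the Aqp1 values was not tested. Epb41, a membrane skeleton protein, had log2 fold changes of -0.11, -0.08 and -0.03 in the 3 comparisons, none of which passed.

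Among 13 tested erythroid regulators, 4 were higher and 1 lower in VDRgem than in VDR-null. Of all tested genes 18.8% were called in that comparison, 10.6% as higher in VDRgem. E2f2, a cell cycle factor that red cell precursors use, fell in VDRgem to 6.75 ± 0.571 CPM, against 11.4 ± 0.864 CPM in control libraries (log2 fold change -0.75, SE 0.14, edgeR adjusted p = 0.0110). E2f2 was also lower in VDRgem than in VDR-null libraries, which averaged 10.6 ± 1.85 CPM (-0.65, edgeR adjusted p = 0.00956). Zfpm1, the Gata1 cofactor FOG1, averaged 11.3 ± 0.906 CPM in VDRgem and 6.29 ± 1.74 CPM in VDR-null libraries (0.85, SE 0.21, edgeR adjusted p = 0.0171). Cbfa2t3, a corepressor in Tal1 complexes, averaged 13.2 ± 0.108 CPM in VDRgem and 9.22 ± 1.24 CPM in VDR-null libraries (0.52, edgeR adjusted p = 0.0200), and Ldb1, an adaptor of the same complexes, was higher by 0.33 (edgeR adjusted p = 0.0486). Hemgn, a blood cell nuclear protein, was called at a low level, 0.335 ± 0.184 CPM in VDRgem and 0.0749 ± 0.0451 CPM in VDR-null libraries (2.24, SE 0.60, edgeR adjusted p = 0.0220). Without VDRgem 1 the calls of E2f2 (edgeR adjusted p = 0.0689 against control and 0.0580 against VDR-null), Zfpm1 (0.0872), Cbfa2t3 (0.0899) and Hemgn (0.145) were lost, with log2 fold changes of -0.73, -0.63, 0.80, 0.52 and 1.75, without VDRgem 2 those of Zfpm1 (0.0533) and Cbfa2t3 (0.0531), and that of Ldb1 without any 1 library other than VDRgem 3 and VDR-null 3 (0.0574 to 0.229). Many tissues express E2f2, Zfpm1, Cbfa2t3 and Ldb1, so their values need not come from red cell precursors, and Gata1 itself had 26 counts in all libraries.

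Of 8 iron supply genes, 4 were higher in VDRgem than in VDR-null, beside 10.6% of all tested genes, and none was called in either mutant against control. Tfrc, the transferrin receptor that brings iron into cells, averaged 253 ± 62.4 CPM in VDRgem and 128 ± 40.6 CPM in VDR-null libraries (log2 fold change 0.98, SE 0.23, edgeR adjusted p = 0.0124), with 154 ± 33.5 CPM in control libraries. Fth1 and Ftl1, the ferritin chains that store iron, were higher by 0.68 and 0.54 (edgeR adjusted p = 0.0101 and 0.0105). Steap3, a ferric reductase of red cell precursors, was higher by 0.42 (edgeR adjusted p = 0.0175). No single library left out ended the Tfrc call, while Fth1, Ftl1 and Steap3 lost theirs without VDRgem 1 (edgeR adjusted p = 0.0815, 0.0831 and 0.110), and Steap3 also without VDRgem 2 (0.0593). Most cells use these genes to some degree, and the enamel-forming epithelium of rodent incisors is known to store iron in ferritin, so they do not mark red cells alone in this tissue.

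Among 18 tested red cell enzymes and maturation genes, Gpx1, a glutathione peroxidase, averaged 154 ± 29.7 CPM in VDRgem and 97.7 ± 12.8 CPM in VDR-null libraries (0.65, SE 0.12, edgeR adjusted p = 0.00555), a call that no single library left out ended. Its log2 fold change was 0.32 without VDRgem 1 and 2, and 0.14 with the keratinocyte covariate (edgeR adjusted p = 0.847). Xpo7, an exportin needed for nuclear condensation in red cell precursors, was lower in VDRgem by a log2 fold change of -0.30 (edgeR adjusted p = 0.0483), a call lost without any 1 library other than control 5, VDRgem 3 and VDR-null 3 (0.0589 to 0.222). Bpgm, which makes the hemoglobin ligand 2,3-bisphosphoglycerate, averaged 163 ± 3.33 CPM in VDRgem, 129 ± 28.4 CPM in VDR-null and 137 ± 16.8 CPM in control libraries, and did not pass. Of globins outside blood, Cygb averaged 51.1 ± 8.32 CPM in VDRgem and 35.4 ± 6.45 CPM in VDR-null libraries (0.53, edgeR adjusted p = 0.0433), a call lost without any 1 library other than control 3, control 4 and VDR-null 2 (0.0501 to 0.144). Of the 17 calls named among these lists, 11 were lost with only the groups compared (edgeR adjusted p = 0.0532 to 0.129) and 5 on library totals alone (0.0967 to 0.190). With the keratinocyte covariate all 17 were lost (0.0611 to 0.989). Between the mutants, the log2 fold change was then 0.02 for Slc25a39, 0.13 for Ftl1 and 0.09 for Steap3, but 1.78 for Tfrc and 0.80 for Cygb. Hbq1b, the theta globin and the only other hemoglobin gene tested, stayed under 0.439 CPM in every library. Its log2 fold change was -0.82 in VDRgem against control, where the 6 genes had positive values, and -0.71 in VDR-null against control. It was -0.11 in VDRgem against VDR-null, and none passed (edgeR adjusted p = 0.169, 0.191 and 0.957).

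Markers of neutrophils, platelets and lymphocytes were low in all groups, and those of macrophages were not. Summed neutrophil markers ran from 6.88 to 9.07 CPM in VDRgem, 2.11 to 7.40 CPM in VDR-null and 4.10 to 28.0 CPM in control libraries, and VDR-null 4, lowest for all 6 genes, was the highest VDR-null library. Of all tested genes 8.62% were called in VDRgem against control, 1.33% in VDR-null against control and 18.8% in VDRgem against VDR-null. Of 8 tested neutrophil genes only Prtn3 was called. It was lower in VDR-null than in control (log2 fold change -1.15, edgeR adjusted p = 0.0411) and higher in VDRgem than in VDR-null (1.17, 0.0120). The median of the 8 was -0.96 in VDRgem and -1.59 in VDR-null against control. The series' own selection took 7 of the 8 as lower in VDR-null than in control, beside 7.79% of all tested genes. Megakaryocyte and platelet markers ran from 15.5 to 22.6 CPM in VDRgem, 9.59 to 12.8 CPM in VDR-null and 9.19 to 13.5 CPM in control libraries, with 10 of 12 averaging under 1 CPM. Of the 4 tested, only Itga2b was called, as higher in VDRgem than in control (log2 fold change 1.34, edgeR adjusted p = 0.0351) and VDR-null libraries (1.80, 0.00700). The sum of 22.6 CPM was that of VDRgem 1, a library high in keratinocyte and muscle markers, and VDRgem 2 and 3 had 15.5 and 16.2 CPM. Itga2b, with a mean of 2.82 CPM over all libraries, had its highest value, 10.9 CPM, in VDRgem 1. Lymphocyte markers ran from 2.60 to 3.83 CPM over all libraries. Summed levels of 8 macrophage markers ran from 285 to 398 CPM in VDRgem, 256 to 369 CPM in VDR-null and 233 to 289 CPM in control libraries. Those of 8 genes of macrophages that recycle heme ran from 223 to 251 CPM in VDRgem, 212 to 277 CPM in VDR-null and 190 to 209 CPM in control libraries. Their median log2 fold change was 0.23 in VDRgem and 0.50 in VDR-null against control. Of them Cd163, the receptor that clears hemoglobin bound to haptoglobin, rose in VDRgem (log2 fold change 1.49, edgeR adjusted p = 0.0130) and in VDR-null (1.59, 0.0231) against control, and of the macrophage markers Adgre1 rose in VDR-null (0.76, 0.0373). The part of these cells in the globin levels was not tested. Whether the calls of Prtn3, Itga2b, Cd163 and Adgre1 hold when single libraries are left out is not given here. With 1 library left out, the fits called from 6 to 685 genes in VDR-null against control.

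The genes whose pattern was most like that of the 6 over the 13 libraries were not in any of these lists. Each of 14151 genes averaging at least 1 CPM was compared, by Pearson's r of log2 CPM, with the mean log2 CPM of the 6 genes. Coro6 had an r of 0.92, Prr15 0.91, Gpr155, Gm5122, Chp2 and Ccm2l 0.88 each, and Hyi and 4930481A15Rik 0.87 each. Spearman's rho for these 8 ran from 0.66 to 0.85. The 6 genes themselves had r between 0.87 (Slc4a1) and 0.98 (Hbb-bs) with the mean that contains them. Without VDR-null 1 and 4, the libraries farthest from the median, r of the 8 ran from 0.50 to 0.76 and that of the 6 genes from 0.66 to 0.94. The first list gene was Bpgm, at rank 16 (r 0.84), followed by Sptb, the erythroid beta spectrin, at rank 59 (0.79). These are descriptions over libraries that share depth, scaling and group, chosen as the highest of many.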

How the data were processed

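RNA-seq was analysed for 13 libraries of lower incisors, 3 VDRgem, 5 VDR-null and 5 control, made with a stranded poly-A kit from 300 ng of total RNA per the labels' protocols. The deposited values are counts per gene, which the authors obtained on mm10 using HTSeq 0.6.1p1, STAR 2.5.3a and bcl2fastq 2.20.0.422, per the submitters' processing notes. The sources used here do not give the annotation release, counting mode, strand setting or read length. Genes were matched by Ensembl ID to GENCODE M21, which also gave transcripts and coordinates, and promoters came from RefSeq on GRCm38.p6.

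Counts were scaled by TMM, filtered with filterByExpr (minimum count 10, 17837 genes kept) and tested with edgeR 4.0.16 in R 4.3.3, in 1 quasi-likelihood fit of all libraries with a mean per group and Benjamini-Hochberg adjustment over all tested genes. A gene was called at an adjusted p under 0.05. SD stands for the spread over libraries, and SE belongs to the fitted log2 fold change. The code of the fit was run on simulated counts with the same dispersion for every gene and changes placed in VDR-null only. That run does not measure how the fit behaves at the spread seen within VDR-null here. Intervals of count ratios are exact binomial ones and cover counting error only.

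The 6 genes and the gene lists were chosen with earlier results of these data known. The text names the 6 genes, in each erythroid list up to 3 genes by level and up to 4 per comparison by smallest p among those called, and the 8 genes most alike by Pearson's r. Other genes, named for their level over all libraries or as macrophage, neutrophil or platelet genes, were chosen after their values were seen. Ahsp and Hbb-bh2 are not analysed here. A few list genes that entered the counts are not reported here by name. Alternatives were DESeq2 1.42.0, limma-voom (limma 3.58.1), other scalings, filters, dispersions, samples and thresholds, a keratinocyte covariate, and leaving out libraries. Figures used matplotlib 3.10.9 in Python 3.11.15.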

Additional observations from a re-analysis of the deposited data

Results flagged for a closer look

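Among 24 values checked for an extreme library within a group, 1 stood out: the ratio of Hba-a2 to Hba-a1 counts in VDR-null 4, at 0.218, lay far from the other VDR-null libraries, which ran from 0.581 to 0.726. Chance alone sets apart about 1 in 20 such groups. The ratio rests on 101 and 463 counts, and both genes share most of their sequence, so it depends on how reads from the shared part were counted.

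The mutants differed by a direct test for 2 of the 6 genes, with a log2 fold change of VDRgem against VDR-null of 1.2 for Slc4a1 and 1.17 for Hba-a1 (edgeR adjusted p = 0.0333 and 0.0497). Of all tested genes 18.8% were called in this comparison, 10.6% as higher in VDRgem. VDRgem libraries were higher than the VDR-null mean in 3 of 3 libraries for both genes, but only 2 of 3 lay above every VDR-null library. VDRgem 1 lay below VDR-null 3 for Slc4a1, and VDRgem 2 lay below it for Hba-a1. Each call was lost when single libraries were left out.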

How the results depend on the processing

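None of the 6 genes changed its direction under another test, scaling, filter or dispersion, and 1 of the 6 turned when a library was left out: Hbb-bt in VDRgem against control, to a log2 fold change of -0.038 without VDRgem 3, in a range of -0.038 to 0.41 over the libraries left out. No paired analysis was possible because the labels carry no replicate numbers that the groups share.

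Of the 6 genes, those called in VDRgem against VDR-null numbered 2, and 3 with limma-voom or by the series' own selection, 1 with robust dispersion, 0 with only the groups compared, 0 without VDRgem 1 and 2 and 0 with the keratinocyte covariate; leaving out each library gave 0 to 4. In VDR-null against control the series' own selection took 2, and leaving out each library gave 0 to 1. In VDRgem against control every alternative gave 0.

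The background moved more, with the series' own selection again applied to the edgeR values. In VDRgem against control 1537 genes were called, and 2350 with DESeq2, 981 with limma-voom, 5 without VDRgem 1 and 2, 0 with the keratinocyte covariate, 3385 by the series' own selection and 2479 at an adjusted p under 0.1; leaving out each library gave 66 to 2021. In VDR-null against control 238 were called, and 1548 with DESeq2, 448 with upper-quartile factors, 423 with a mean of at least 1 CPM, 703 with only the groups compared, 676 without VDRgem 1 and 2, 2349 by the series' own selection and 1607 at 0.1; the leave-out range was 6 to 685. In VDRgem against VDR-null 3346 were called, and 753 with only the groups compared, 32 without VDRgem 1 and 2, 15 with the covariate and 5127 at 0.1; the leave-out range was 434 to 4610. The cause of these differences was not tested. The mean share of counts held by the 6 genes ran from 0.0225% to 0.0248% over all libraries with 1 left out, within VDRgem from 0.0245% to 0.0330%, within VDR-null from 0.0147% to 0.0208% and within control from 0.0245% to 0.0268%. Slc4a1 had the fewest counts of the 6 genes, as few as 38 in a library.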
